A study of Mus musculus with 12 samples.

Results

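The 10 genes described here encode NF-kB transcription factors (Nfkb1, Nfkb2, Rela and Relb), the cytoplasmic inhibitors Nfkbia, Nfkbib and Nfkbie, the nuclear IkB proteins Nfkbiz and Bcl3, and the ubiquitin-editing inhibitor Tnfaip3, also called A20. They were chosen by symbol among the 55573 genes of the count table, and all 10 were found. The libraries came from the extensor digitorum longus (EDL), a fast muscle of the mouse hindlimb, of C57BL/6 mice, and the labels name no treatment or engineered allele for any group. The 4 groups of 3 libraries each were made from 1 myofiber, from 5 or 20 pooled myofibers, or from whole muscle. Single fibers were lysed directly, while Trizol was used to extract RNA from whole muscle, and SMART-Seq HT amplified total RNA in both, so in comparisons of single fibers with whole muscle fiber isolation and extraction method cannot be told apart. No separate statement is made for the pools, nor on whether the libraries of a group came from different animals, so p-values measure only the spread between these libraries, which may be technical.

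NF-kB factors bind DNA as dimers, and in resting cells most of these dimers are held in the cytoplasm by IkB proteins. Signals from tumor necrosis factor, interleukin-1 or Toll-like receptors activate the IkB kinase complex, the IkB protein is degraded and the dimer enters the nucleus. Several of its target genes encode its own inhibitors, so the response is limited by feedback. In skeletal muscle the pathway is known for its part in inflammation and in fiber wasting.

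Total counts ranged from 4702823 to 27787120 reads per library. The 10 skeletal muscle fiber markers, such as Acta1, were present in every library, with summed levels of 191923 to 328532 CPM (counts per 1000000 scaled reads) in single fibers, 68309 to 351032 in pools of 5, 19418 to 124357 in pools of 20 and 87888 to 115750 in whole muscle. The scaling includes TMM factors, which ran from 0.522 to 2.95. Among 1504 olfactory, vomeronasal and taste receptor genes, used as a gauge of reads spread over genes that muscle is not known to use, 58.1% and 68.8% had a read in pools of 5 number 1 and 2, and 78.7% to 97.3% in the pools of 20. In the other 7 libraries the share was 2.33% to 26.7%. In 1 or 2 of the 3 pools of 20, Nfkb1, Nfkb2, Relb, Nfkbib, Nfkbie, Tnfaip3 and Bcl3 had no more reads per kilobase than the 99th percentile of those receptor genes, as had Nfkbie in 1 and Bcl3 in 3 of the single fibers. Rela, Nfkbia and Nfkbiz were above that percentile in every library. The margin was small in pool of 20 number 2, with 20.2 reads per kilobase for Rela and 20.5 for Nfkbiz against 17.9.

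Because several of these genes are known as NF-kB targets, the sequence next to their start sites is shown for the members in the RefSeq promoter table (GRCm38.p6), which held 7 of the 10. Nfkb1, Relb and Nfkbiz were not among them. Windows of 250 bases before to 50 bases after each annotated start were searched on both strands for the 10-base kappa-B consensus. It was found for 5 of the 7 genes (Nfkb2, Nfkbia, Nfkbie, Tnfaip3 and Bcl3) and not for Rela or Nfkbib. Over all genes of the table, 5.14% held at least 1 match, and over all 32851 windows 4.51% did. A match describes letters only and does not show binding. The 250 bases before the Nfkbia start (chr12:55492648-55492897, minus strand) carry the match at 29 to 20 bases before the start, given in capitals:
Nfkbia: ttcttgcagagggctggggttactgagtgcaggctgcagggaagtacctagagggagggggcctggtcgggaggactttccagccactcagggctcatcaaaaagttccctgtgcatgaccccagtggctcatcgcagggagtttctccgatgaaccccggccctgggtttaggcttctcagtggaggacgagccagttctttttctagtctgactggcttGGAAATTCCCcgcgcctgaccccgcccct

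The other inhibitors and Nfkb2 are shown as 30-base windows around a match, again with the match in capitals and in the direction of the gene. The Tnfaip3 windows lie at chr10:19015516-19015545 and, next to the start, chr10:19015403-19015432 (minus strand). The others lie at chr17:45555584-45555613 for Nfkbie (plus strand), chr7:19822734-19822763 for Bcl3 (minus strand), where the match starts 3 bases into the transcript, and chr19:46304716-46304745 for Nfkb2 (plus strand), where the match ends 2 bases before the start.
Tnfaip3 distal: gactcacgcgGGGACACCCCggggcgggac
Tnfaip3 proximal: aatttccatcGGAAATCCCCctgttggcaa
Nfkbie: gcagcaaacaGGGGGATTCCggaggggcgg
Bcl3: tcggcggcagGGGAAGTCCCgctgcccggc
Nfkb2: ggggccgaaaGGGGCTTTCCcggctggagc
The consensus searched fixes GG at the start and CC at the end of every match, and the printed matches differ in the bases between. Nfkb2 held further matches, one of them shared by a pair of its annotated starts.

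Across all isolated myofibers against whole muscle, 1 of the 10 genes passed the test. Nfkbiz rose 13.8-fold (log2 fold change 3.79, SE 0.74, adjusted p = 0.00268, edgeR quasi-likelihood test, 9 fiber libraries against 3). None fell. Of all 22110 genes tested, 15.2% were called in either direction 7.46% higher and 7.78% lower, so 1 of 10 is near the background. The median log2 fold change was 0.28 over the 10 genes and 0.40 over all genes tested. The factors that scale the libraries bear on such values: the median over all genes was 0.56 with RLE factors and 0.69 with upper-quartile factors, and the share of calls that were higher was 49.0%, 52.5% and 65.1% under TMM, RLE and upper-quartile factors.

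**Figure D1:**
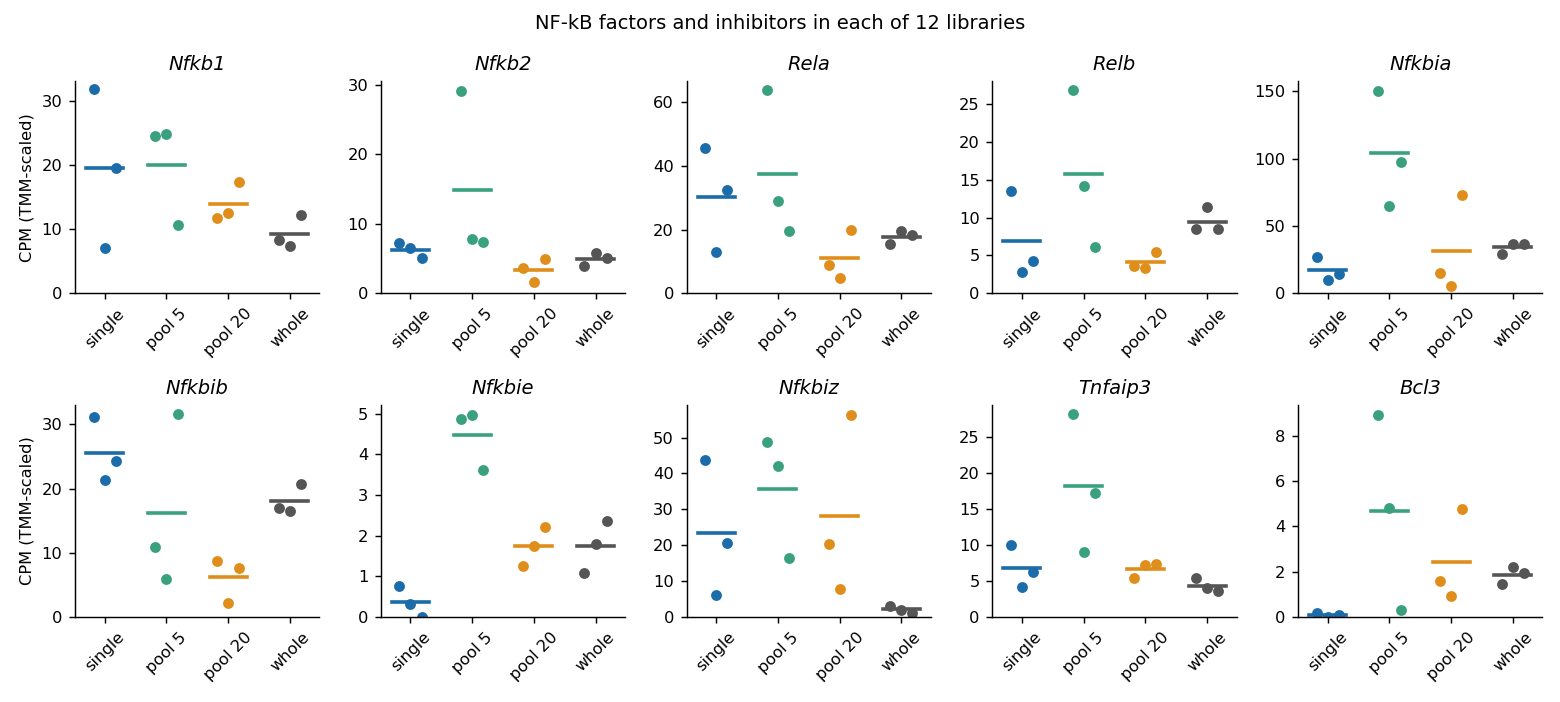
Level of each of the 10 genes in each of the 12 libraries, in TMM-scaled CPM on a linear axis from 0 (points, replicates 1 to 3 from left to right; lines, group means). Nfkbiz is above 6 CPM in every fiber library and at most 3.18 CPM in whole muscle, and the other 9 genes overlap between fibers and whole muscle.

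Rela (ENSMUSG00000024927, chromosome 19, 5637483 to 5648130, plus strand, GRCm38) encodes p65, the main activating subunit of the classical pathway. It stood at 45.7, 12.9 and 32.3 CPM in single fibers, 63.8, 28.9 and 19.5 in pools of 5, 9.00, 4.70 and 19.8 in pools of 20, and 15.4, 19.6 and 18.3 in whole muscle. Fiber libraries lay on both sides of whole muscle, 5 above all 3 whole muscle libraries and 3 below. The log2 fold change was 0.75 (adjusted p = 0.236) in single fibers, 1.01 (0.201) in pools of 5 and -0.37 in pools of 20, and none passed.

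Nfkb1 (ENSMUSG00000028163, chromosome 3, 135584655 to 135691547, minus strand) encodes p105, the precursor of the p50 subunit. Its levels were 32.0, 7.14 and 19.6 CPM in single fibers, 24.6, 24.9 and 10.7 in pools of 5, 11.8, 12.5 and 17.4 in pools of 20, and 8.36, 7.35 and 12.3 in whole muscle. In 6 of 9 fiber libraries it was above all whole muscle libraries. Against whole muscle it rose in pools of 20 (log2 fold change 0.93, SE 0.33, adjusted p = 0.0315), but the call was lost when any of these pools, whole muscle 1 or whole muscle 2 was left out, with adjusted p from 0.0524 to 0.340. In single fibers and pools of 5 the log2 fold changes were 1.03 and 1.04, both with adjusted p = 0.174.

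Nfkb2 (ENSMUSG00000025225, chromosome 19, 46304320 to 46312385, plus strand) encodes p100, precursor of p52, and Relb (ENSMUSG00000002983, chromosome 7, 19606217 to 19629438, minus strand) encodes its usual partner in the non-canonical pathway. In CPM both peaked in pool of 5 number 1. Nfkb2 stood at 29.1 CPM there, at 1.59 to 7.86 CPM in the other 8 fiber libraries and at 3.95 to 5.78 CPM in whole muscle. Relb stood at 26.8 CPM there, at 2.79 to 14.1 CPM in the other fiber libraries and at 8.51 to 11.4 CPM in whole muscle. Neither passed in any comparison with whole muscle, and the nearest to it was Relb in pools of 20 (log2 fold change -0.85, adjusted p = 0.0648). Exons of Nfkb2 share 18.1% of their bases with genes on the opposite strand, among them Psd. The strand setting of the counting is not given in the sources used here, so those reads cannot be told apart.

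Nfkbia (ENSMUSG00000021025, chromosome 12, 55489410 to 55492647, minus strand) encodes IkB-alpha, the inhibitor that NF-kB itself restores after activation. Its levels were 27.3, 9.93 and 14.4 CPM in single fibers, 150.3, 65.0 and 97.6 in pools of 5, 15.3, 5.46 and 73.1 in pools of 20, and 28.8, 36.8 and 36.4 in whole muscle. Every pool of 5 was above, and every single fiber below, all whole muscle libraries on this scale. As RPM (CPM without scaling factors), the single fibers stayed below, but pool of 5 number 2, at 48.0, lay within the 46.0 to 52.0 of whole muscle, and the mean of the pools of 5 was 62.1 ± 15.3 against 49.9 ± 3.38 (SD, n = 3 each). Nfkbia rose in pools of 5 against whole muscle (log2 fold change 1.54, SE 0.37, adjusted p = 0.0435). That call was lost without pool of 5 number 1 or any single whole muscle library, where adjusted p ran from 0.0990 to 0.232. In single fibers the log2 fold change was -1.02 (SE 0.39, adjusted p = 0.0767), which did not pass. In pools of 20 it was 0.13 (adjusted p = 0.882), and without pool of 20 number 3 it was -1.36 (adjusted p = 0.0207), the reverse direction.

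Setting Nfkbia against Rela within each library removes the scaling between libraries. The ratio of reads per kilobase was 1.14, 1.47 and 0.852 in single fibers, 4.50, 4.29 and 9.56 in pools of 5, 3.24, 2.22 and 7.06 in pools of 20, and 3.57, 3.59 and 3.80 in whole muscle. Every single fiber was below each of the other 9 libraries, and the whole muscle libraries lay within a narrow range. The ratio shows that the pair differed between groups, not which of the genes did.

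**Figure D2:**
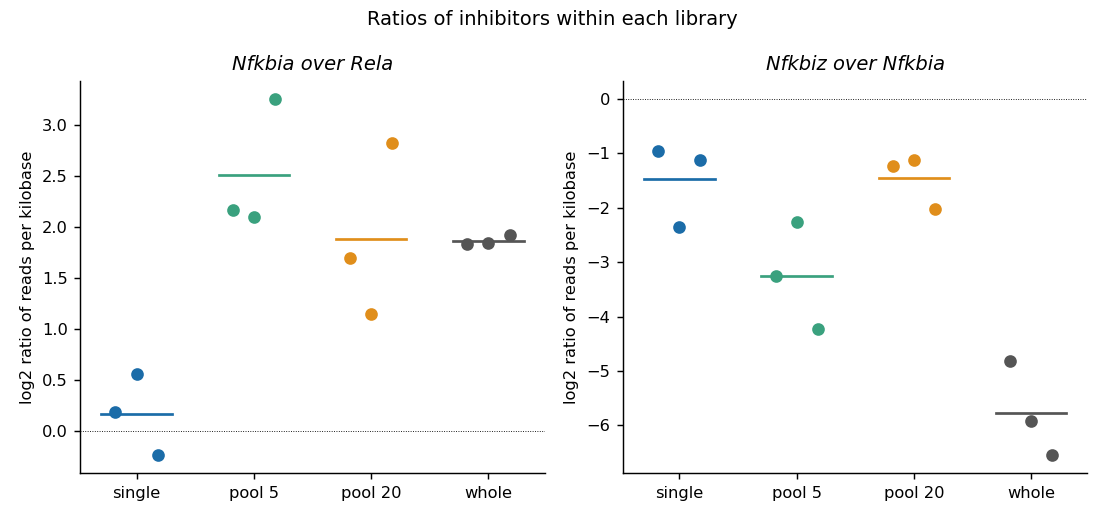
Log2 ratio of reads per kilobase of Nfkbia to Rela (left) and of Nfkbiz to Nfkbia (right) in each library (points; lines, group means, n = 3 each). The single fibers lie lowest for Nfkbia over Rela, with a highest ratio of 1.47, and whole muscle lies lowest for Nfkbiz over Nfkbia, with a highest ratio of 0.035.

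Nfkbib (ENSMUSG00000030595, chromosome 7, 28758251 to 28767512, minus strand) encodes IkB-beta, which holds back Rela-containing dimers and is less subject to rapid resynthesis. Its order over the groups was not that of Nfkbia. Its levels were 31.1, 21.4 and 24.2 CPM in single fibers, 10.9, 5.94 and 31.6 in pools of 5, 8.77, 2.12 and 7.61 in pools of 20, and 16.96, 16.6 and 20.7 in whole muscle. All pools of 20 were below, and all single fibers above, every whole muscle library. Nfkbib fell in pools of 20 against whole muscle (log2 fold change -1.27, SE 0.39, adjusted p = 0.0139), a call lost without whole muscle 3 (adjusted p = 0.0683). It was higher in single fibers than in pools of 20 (log2 fold change 1.73, SE 0.49, adjusted p = 0.0145). As RPM, none of the 9 fiber libraries was above whole muscle and all were below, so the position of the single fibers depends on the factors. Its exons share 16.4% of their bases with Ccer2 and Sirt2 on the opposite strand, whose reads cannot be told apart from its own.

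Nfkbie (ENSMUSG00000023947, chromosome 17, 45555703 to 45563169, plus strand) encodes IkB-epsilon, a further classical inhibitor that is itself inducible. Per kilobase it was the scarcest of the 3 cytoplasmic inhibitors in each group, at 0.118 CPM per kilobase in single fibers and 0.573 in whole muscle. In CPM, single fibers had 0.75, 0.32 and 0 CPM, where 0 reads allow up to 0.267 CPM by counting error only, pools of 5 had 4.87, 4.97 and 3.62, pools of 20 had 1.25, 1.74 and 2.22, and whole muscle had 1.08, 1.78 and 2.36. Single fibers lay below and pools of 5 above all whole muscle libraries on this scale, while as RPM the pools of 5, at 2.22 to 3.68, overlapped whole muscle, at 1.73 to 3.35. Neither difference passed: the log2 fold change was -2.34 (SE 0.96, adjusted p = 0.0955) in single fibers and 1.29 (adjusted p = 0.136) in pools of 5.

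Nfkbiz (ENSMUSG00000035356, chromosome 16, 55811375 to 55838899, minus strand) encodes IkB-zeta, an inducible nuclear IkB protein that works with NF-kB on secondary response genes such as Il6. It stood at 43.9, 6.04 and 20.7 CPM in single fibers, 48.8, 42.2 and 16.3 in pools of 5, 20.3, 7.81 and 56.4 in pools of 20, and 3.18, 1.89 and 1.22 in whole muscle. All 9 fiber libraries were above all 3 whole muscle libraries, a pattern that 3.22% of the genes tested shared. As RPM without factors, 8 of 9 were above, the exception being single fiber 2 with 3.35 against 5.07 in whole muscle 1. These levels rest on 93 to 1193 reads per fiber library and 36 to 53 reads per whole muscle library.

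In each fiber group on its own Nfkbiz rose against the same whole muscle libraries, which the comparisons share. The log2 fold change was 3.47 (SE 0.76, adjusted p = 0.0122) in single fibers, 4.06 (SE 0.59, adjusted p = 0.0132) in pools of 5 and 4.06 (SE 0.58, adjusted p = 1.3e-04) in pools of 20. The fiber groups did not differ from each other by the test, with adjusted p of 0.750, 0.523 and 0.852 for the 3 pairs. Leaving out whole muscle 2 or 3 raised adjusted p to 0.0680 and 0.0684 in single fibers. In pools of 5, leaving out pool 1 or any whole muscle library raised it to between 0.0583 and 0.102. In pools of 20, and for the fibers as one group, the call held without any 1 library, and for the fibers together it also held without the 5 libraries with wide receptor-gene reads. Its log2 fold change lay at the 98.4th percentile of all genes in single fibers and at the 86.2nd in pools of 20.

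Per kilobase of exon, Nfkbiz ranked 10th of the 10 genes in whole muscle, at 0.417 CPM per kilobase, behind Nfkbia at 21.1, Nfkbib at 8.33 and Rela at 5.78. It ranked 4th in single fibers (4.69 CPM per kilobase), 4th in pools of 5 (7.13) and 2nd in pools of 20 (5.61), where only Nfkbia was higher (19.4). Set against Nfkbia within a library, the ratio of reads per kilobase was 0.516, 0.195 and 0.459 in single fibers, 0.104, 0.208 and 0.054 in pools of 5, 0.426, 0.459 and 0.247 in pools of 20, and 0.035, 0.016 and 0.011 in whole muscle. All fiber libraries were above all whole muscle libraries in this ratio, which needs no scaling factors.

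Bcl3 (ENSMUSG00000053175, chromosome 7, 19808462 to 19822770, minus strand) encodes a nuclear IkB protein that binds p50 and p52 homodimers. It was nearly absent from single fibers, with 2, 0 and 1 reads (0.17, 0 and 0.09 CPM), where the 0 allows up to 0.195 CPM. Pools of 5 had 8.91, 4.81 and 0.33 CPM, pools of 20 had 1.59, 0.91 and 4.78, and whole muscle had 1.47, 2.21 and 1.93. In single fibers it fell against whole muscle (log2 fold change -4.47, SE 0.92, adjusted p = 0.00977) and it was lower than in pools of 20 (log2 fold change -5.06, SE 1.38, adjusted p = 0.0126). From the pooled reads, 3 against 138, the ratio to whole muscle was 25.2-fold lower, with a 95% counting interval from 8.44 to 124. With so few reads in single fibers, Bcl3 passed the filter only through the group it was compared with, and in 2 of the 3 pools of 20 it did not exceed the receptor-gene percentile used above. Without any 1 whole muscle library the first of these calls had an adjusted p of 0.0504 to 0.0630. Exons of Bcl3 share 6.51% of their bases with an antisense gene, whose reads cannot be told apart.

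Endothelial markers were low in the same libraries. The summed level of 10 such markers was 2.34 to 7.34 CPM in single fibers, with 2 to 4 of the 10 at 0 reads and Esam at 0 in all 3, against 290 to 361 CPM in whole muscle. It was 359.8 and 314.9 CPM in pools of 5 number 1 and 2, 28.6 in number 3, 46.0 and 52.6 in pools of 20 number 1 and 2, and 249 in number 3. Pool of 5 number 3 was thus low in both. It also differed in receptor genes with a read, at 4.59% against 58.1% and 68.8% in pools of 5 number 1 and 2. Among the pools of 20 the lowest Bcl3 was in number 2 and the lowest endothelial sum in number 1. Icam1, an adhesion gene of the target list, was at 0.08 to 0.13 CPM in single fibers and 2.63 to 4.82 CPM in whole muscle. The parts of endothelial cells and of wide receptor-gene reads in these results were not tested. In such libraries fewer cells of a type and less RNA per cell cannot be told apart.

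**Figure D3:**
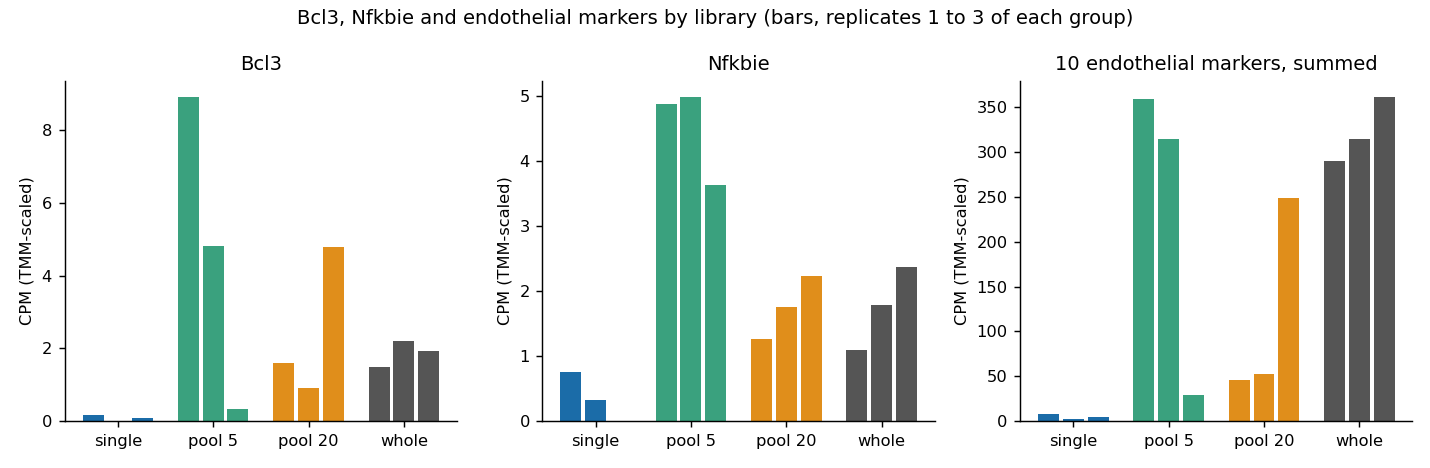
Bcl3, Nfkbie and the summed level of 10 endothelial markers in each library, in TMM-scaled CPM (bars, replicates 1 to 3 from left to right in each group). All are low in the single fibers, where the endothelial sum is at most 7.34 CPM. Bcl3 and the endothelial sum are both low in pool of 5 number 3, the only pool without wide receptor-gene reads.

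Markers of other cell types were measured in the same way. Fibroblast markers summed to 10.8 to 211 CPM in single fibers, 51.7 to 516 in pools of 5, 74.8 to 493 in pools of 20 and 3450 to 3888 in whole muscle. The macrophage genes Lyz2 and Cd74 stood at 0 to 1.502 and 0 to 0.17 CPM in single fibers, against 225 to 235 and 110 to 136 CPM in whole muscle. Over all 12 macrophage markers the sum was 20.5 to 285 CPM in single fibers, with 4 to 8 of the 12 at 0, 49.4 to 77.6 in pools of 5, 36.3 to 93.3 in pools of 20 and 566 to 653 in whole muscle. Cd68, a lysosomal gene on that list that is named here after its values were seen, went the other way, with 1.49 to 266 CPM in single fibers (median 244), 12.2 to 29.8 in pools of 5, 2.43 to 3.53 in pools of 20 and 5.73 to 7.23 in whole muscle. It rose against whole muscle in single fibers (log2 fold change 4.73, adjusted p = 0.0358) and in pools of 5 (1.73, adjusted p = 0.0331). The other 11 macrophage markers summed to 18.9 to 36.2 CPM in single fibers. The fibroblast and macrophage sums were below all whole muscle libraries in all 9 fiber libraries. Nfkbiz was above all whole muscle libraries in the same 9 in CPM, and in 8 of them as RPM. Summed marker levels do not show which cells express Nfkbiz. The part of fibroblasts and macrophages in its levels was not tested. Satellite cell markers summed to 2.41 to 4.42 CPM in single fibers, 19.8 to 25.5 in pools of 5, 28.0 to 38.9 in pools of 20 and 34.4 to 45.5 in whole muscle, so the pools of 20 and whole muscle overlapped in these.

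Tnfaip3 (ENSMUSG00000019850, chromosome 10, 19000910 to 19015657, minus strand) encodes A20, which edits ubiquitin chains on upstream signaling proteins and so ends NF-kB activation. Its levels were 10.0, 4.22 and 6.24 CPM in single fibers, 28.2, 8.99 and 17.2 in pools of 5, 5.35, 7.20 and 7.38 in pools of 20, and 5.34, 3.96 and 3.65 in whole muscle. In 8 of 9 fiber libraries it was above all whole muscle libraries, and in 4 of 9 as RPM. It rose in pools of 5 (log2 fold change 1.99, SE 0.45, adjusted p = 0.0377) and in pools of 20 (1.01, SE 0.39, adjusted p = 0.0469) against whole muscle. The second call was lost without any 1 of the 6 libraries (adjusted p = 0.0879 to 0.183). The first was lost without pool of 5 number 1 or any whole muscle library (0.111 to 0.206). For the fibers as one group the log2 fold change was 1.12 (SE 0.44, adjusted p = 0.0801), and it did not pass.

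Counted over the group, 1 gene rose and 1 fell in single fibers against whole muscle, where 33.6% of 14028 genes were called, 13.9% higher and 19.8% lower. In pools of 5, 3 genes rose (Nfkbia, Nfkbiz and Tnfaip3), where 8.85% of 14764 genes were called and 4.63% were called higher, and the median log2 fold change was 1.28 over the 10 genes against -0.03 over all. In pools of 20, 3 rose and 1 fell, where 43.9% of 16969 genes were called, 30.3% higher and 13.5% lower, so these 4 are near the background. Leaving out single libraries moved these counts to between 0 and 6 in single fibers. There it was 0 without whole muscle 2 or 3 and 1 without whole muscle 1, where 10.4% to 11.8% of all genes were called. It was 5 without single fiber 1 (33.1% of all genes) and 6 without single fiber 2 (49.96%). In pools of 5 the count was 0 without pool 1 or any whole muscle library and 10 without pool 3, where 9 were higher and 1, Nfkbib, was lower. Calls over all genes moved in the same way, to 1.31% without pool 1, 0.0429% to 0.279% without a whole muscle library and 48.4% without pool 3. With pool 3 as the only pool of 5, Nfkbiz, Tnfaip3, Nfkbia and Nfkbib were higher and Relb and Bcl3 lower than whole muscle, in a fit that called 46.4% of all genes. That fit assumes that the lone library varies like the others. In pools of 20 the count was 2 to 4, where 38.8% to 57.8% of all genes were called.

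**Figure D4:**
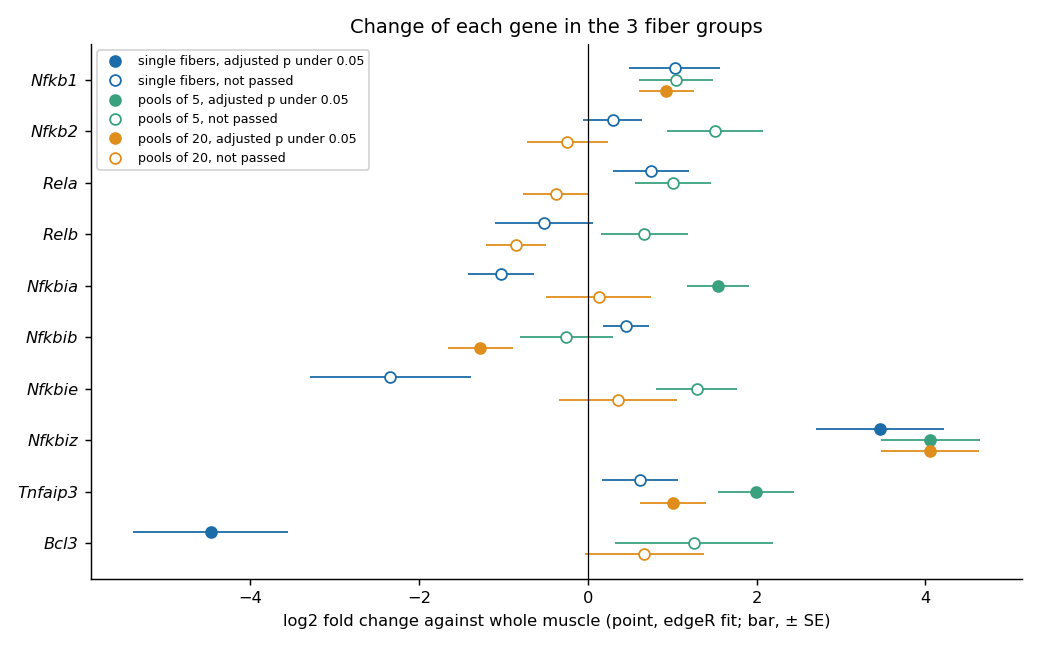
Log2 fold change of each gene against whole muscle in single fibers, pools of 5 and pools of 20 (points; bars, SE; filled where adjusted p was under 0.05, edgeR). Nfkbiz is the gene that is filled in all 3 groups, at 3.47, 4.06 and 4.06, and Bcl3 and Nfkbie lie left of 0 in single fibers and right of 0 in both pools.

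Between the fiber groups, single fibers and pools of 5 gave no call by edgeR among the 9 genes tested (Bcl3 was under the filter), and 0.0157% of 12700 genes were called. At an unadjusted p under 0.05 there were 3, with log2 fold changes of -2.62 for Nfkbia, -3.70 for Nfkbie and -1.42 for Tnfaip3, and DESeq2 called Nfkbia and Nfkbie. Of all genes 8.91% were under that unadjusted p. Single fibers against pools of 20 gave Nfkbib as higher and Bcl3 as lower, where 36.1% of 16978 genes were called, 8.52% higher and 27.5% lower. All 3 pools of 20 are among the 5 libraries with wide receptor-gene reads, whose part in these calls was not tested. Pools of 5 against pools of 20 gave 0 calls among the 10 by edgeR and by DESeq2, with 4 at an unadjusted p under 0.05. Of all 17113 genes 0% were called, and 8.78% were at an unadjusted p under 0.05.

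The genes whose levels over the 12 libraries were most like those of a member were found as the smallest root mean square difference of centred log2(CPM + 0.5) among 5998 genes with a mean of at least 10 CPM. For Nfkbiz these were Ikzf4 (0.56), Ccnl1 (0.61) and Malt1 (0.66), and no gene was within 0.5. For Nfkbia they were Zfp36l1 (0.64), Lmod2 (0.69) and Ptms (0.72), and for Rela they were Lmna (0.26), Smad1 (0.28) and B4galt1 (0.29). Cemip2 (0.25) was nearest to Nfkb1. Emc7 (0.20) was nearest to Nfkbib, for which 830 genes were within 0.5, so its pattern was a common one.

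A further 80 genes of the pathway were read in 4 lists. In the fibers as one group the shares to read them against are the 7.46% of all genes called higher, the 7.78% called lower and the median log2 fold change of 0.40 given above. Of 13 ligands and receptors tested, 1 fell and none rose, with a median of -0.33. The gene that fell was Ltbr, the lymphotoxin beta receptor (log2 fold change -1.30, SE 0.37, adjusted p = 0.0281). In single fibers alone 4 of 11 fell, Cd40, Ltbr, Tnfrsf11a and the TNF receptor gene Tnfrsf1a, and 1 rose. That was Tnfrsf12a, the TWEAK receptor, at 677 ± 475 CPM (SD, n = 3) against 60.6 ± 3.75 in whole muscle (log2 fold change 3.49, SE 0.69, adjusted p = 0.00871). There 33.6% of all genes were called, 13.9% higher and 19.8% lower. Cd40 and Tnfrsf11a, at no more than 0.25 and 0.33 CPM in single fibers, passed the filter only through whole muscle, so only a fall could be called. Tnfrsf12a also rose in pools of 5 (log2 fold change 1.68, adjusted p = 0.0358). In pools of 20 it lay below whole muscle, at 6.29 to 41.3 CPM, and did not pass (log2 fold change -0.92, adjusted p = 0.171). The ligand genes Tnf and Il1b had no read in single fibers. They were called higher in pools of 20, where 30.3% of all genes were. Their levels there were 1.14 to 2.36 and 1.02 to 2.22 CPM, against at most 0.62 and 0.18 in whole muscle. Il1b passed the filter only through those pools, and the part of their wide receptor-gene reads was not tested. In pools of 5 Tnf stood at 0.13 to 16.5 CPM and did not pass (log2 fold change 4.05, adjusted p = 0.122), and Il1b was under the filter.

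Of 24 adaptors and kinases, 2 rose and 1 fell in the fibers as one group, with a median of -0.04 against 0.40 over all genes, and these 3 of 24 are near the background of 15.2%. Ripk1, a kinase downstream of TNF receptors, rose (log2 fold change 1.92, SE 0.54, adjusted p = 0.0259), from 5.75 ± 0.780 CPM in whole muscle to 13.4 ± 7.32 in single fibers, 40.4 ± 26.5 in pools of 5 and 19.1 ± 9.84 in pools of 20 (SD, n = 3 each). Map3k14, the NIK kinase of the non-canonical pathway, rose (log2 fold change 1.46, SE 0.44, adjusted p = 0.0332). Tradd, an adaptor of TNF receptor 1, fell (log2 fold change -2.97, SE 0.80, adjusted p = 0.0206) from 4.14 ± 2.11 CPM in whole muscle to 0.355 ± 0.560 in single fibers. The abundant members Irak1 and Map3k7 had log2 fold changes of 0.02 and -0.24 with adjusted p of 1.000 and 0.739. Tab2 rose in single fibers (log2 fold change 1.93, adjusted p = 0.00193).

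Of 16 other factors and brakes, 1 rose in the fibers as one group, and the median was 0.26. It was Rel, which encodes c-Rel, the fifth NF-kB subunit. Rel stood at 53.2 ± 35.9 CPM in single fibers, 29.4 ± 12.9 in pools of 5, 8.70 ± 1.19 in pools of 20 and 3.66 ± 0.865 in whole muscle (SD, n = 3 each). The log2 fold change was 2.70 (SE 0.54, adjusted p = 0.00304) for the fibers together, 3.86 in single fibers, 2.94 in pools of 5 and 1.60 in pools of 20, and each passed. The abundant brakes Rnf11, Tax1bp1 and Commd1 had log2 fold changes of -0.72, -0.47 and -0.14, none of which passed.

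Of 23 NF-kB target genes tested, 5 rose and none fell in the fibers as one group, with a median log2 fold change of 1.48 against 0.40 over all genes. The list was chosen with earlier results of these data known, so its direction is not independent evidence. Gadd45b, a stress response gene, rose (log2 fold change 2.89, SE 0.71, adjusted p = 0.0120), from 36.3 ± 7.06 CPM in whole muscle to 203 ± 197 in single fibers. Irf1, an interferon-pathway factor, rose (2.04, adjusted p = 0.0390). The chemokine genes Cxcl1 (6.05, adjusted p = 0.00724) and Cxcl10 (4.54, adjusted p = 0.00728) rose as well. Cxcl2 had 0 reads in all whole muscle libraries and 0 to 46 reads in the fiber libraries, with reads in 8 of 9. Its pooled level was at least 40.0-fold higher in fibers, against a floor of 3 counts over the whole muscle group. The most abundant target, Sod2, had a log2 fold change of -0.57 (adjusted p = 0.521).

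The target list divided more in single fibers. There 3 of 18 rose (Cxcl1, Cxcl10 and Gadd45b) and 4 fell (Bcl2l1, Icam1, Plau and Vcam1), with a median of 0.35 against -0.12 over all genes. Over all genes 13.9% were called higher and 19.8% lower there. In pools of 5, 8 of 22 rose and none fell, where 4.63% of all genes were called higher, with a median of 1.91 against -0.03. In pools of 20, 10 of 20 rose and none fell, where 30.3% of all genes were called higher, with a median of 1.22 against 0.38. Genes at low levels could pass the filter through the group where they were higher, so these counts cover the genes tested and not the list. The endothelial sums given above for Bcl3 were lowest in the group where Icam1 and Vcam1 fell (Vcam1 is also on the satellite cell list), and their part was not tested.

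**Figure D5:**
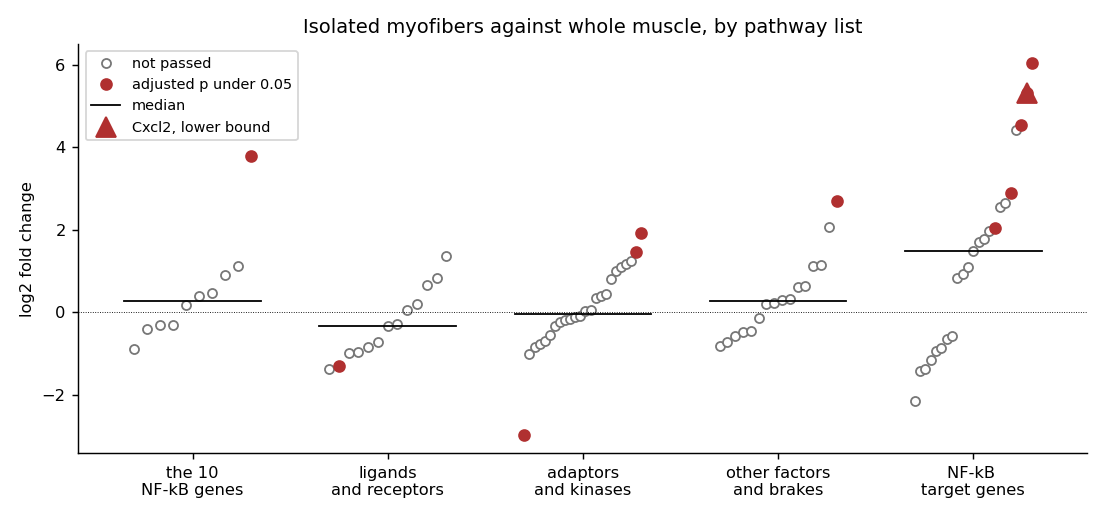
Log2 fold change of the isolated myofibers as one group against whole muscle for the 10 NF-kB genes and the 4 pathway lists (points, genes; filled, adjusted p under 0.05 by edgeR; black lines, medians; triangle, Cxcl2 at its lower bound). The filled points above 0 are Nfkbiz in the first column, Ripk1 and Map3k14 in the third, Rel in the fourth and 5 target genes in the last.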

How the data were processed

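The deposited file holds raw gene counts, whole numbers of reads per Ensembl gene, for 12 libraries. Reads were aligned with HISAT2, handled with SAMtools and counted with featureCounts on GRCm38/mm10, per the submitters' processing notes, and versions, strand and multimapping settings are not given in the sources used here. Of 55573 identifiers, 55480 matched GENCODE vM21, which gave names, coordinates and exon lengths. Counts were tested with edgeR 4.0.16 in R 4.3.3 (TMM factors, filterByExpr, glmQLFTest) over all genes, with Benjamini-Hochberg adjusted p under 0.05 as the threshold, in 7 comparisons. The isolated fibers were compared with whole muscle in a fit of all 12 libraries, which kept 22110 genes. Each pair of groups was compared in a fit of its own 6 libraries. The SE given with edgeR values was derived from the test, as the absolute log2 fold change over the square root of the F statistic. The fits were also run on simulated counts, with the same spread for every gene and no difference in composition between groups. That run does not show how the fits do on these libraries. Alternatives were RLE and upper-quartile factors, no filter, DESeq2 1.42.0, a replicate block, and leaving out each library.

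The members and lists were chosen with earlier results of these data known. Named genes were all 10 members, and for each pathway list the 3 with the highest mean CPM and up to 3 of the largest calls in each direction for the fibers as one group. For each cell type list they were the 2 highest in whole muscle. Icam1, Cd68 and the genes listed as called in single groups were named after their values were seen. Intervals and limits at 0 reads (3 counts) cover counting error only, since the reads carry no molecular identifiers in the sources used here. Ratios, levels per kilobase and list medians are descriptions without a test.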

Additional observations from a re-analysis of the deposited data

Results flagged for a closer look

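The difference between single fibers and pools of 20 passed the test for a pair of members. Nfkbib was higher in single fibers (log2 fold change 1.73, adjusted p = 0.0145, edgeR), with 21.4 to 31.1 CPM against 2.12 to 8.77 CPM and no overlap in 3 against 3 libraries. Bcl3 was lower in single fibers (log2 fold change -5.06, adjusted p = 0.0126, edgeR), with 0 to 0.17 CPM, or 2, 0 and 1 reads, against 0.91 to 4.78 CPM. Bcl3 passed the filter through the pools of 20 only, and in 2 of those 3 it had no more reads per kilobase (5.66 and 4.85) than the 99th percentile of the receptor genes (6.34 and 17.9). In this comparison 36.1% of all genes tested were called.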

How the results depend on the processing

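Counts of members called moved by more than 1.5 times under some settings. For the fibers as one group the count of 1 became 2 with upper-quartile factors, with DESeq2 and without the 5 libraries with wide receptor-gene reads, an alternative chosen after seeing the data. In single fibers against whole muscle 2 became 4 with DESeq2. In pools of 5 against whole muscle 3 became 5 with DESeq2 and 6 without those libraries. In single fibers against pools of 5, 0 became 2 without the filter and with DESeq2, and in single fibers against pools of 20, 2 became 1 without the filter. Leaving out each library in turn gave 1 to 1 for the fibers together, 0 to 6, 0 to 10 and 2 to 4 for single fibers, pools of 5 and pools of 20 against whole muscle, and 0 to 2, 2 to 3 and 0 to 2 for single against 5, single against 20 and 5 against 20.

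Replicate numbers were looked at as a possible pairing. Deviations from group means in same-numbered libraries correlated from -0.403 to 0.455, over 0.1 in 3 of 18 pairs. Correlations between libraries of different numbers were not computed, and the labels do not say what a number shares. These values therefore cannot settle whether the libraries were paired. With a replicate block the count was 1 in pools of 5 against whole muscle, 2 in pools of 20 against whole muscle and 0 in single fibers against pools of 20. Calls over all genes fell too, from 1307 to 231 in the first of these comparisons and from 6123 to 7 in the last. In pools of 20 against whole muscle, with 7446 calls over all genes without the block, they fell only slightly. The block also turned Nfkb1 (-0.16) and Relb (-0.048) in single fibers against pools of 20, and Nfkbia for the fibers together (-0.087) and in pools of 20 (-0.53).

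As RPM without factors, the number of fiber libraries above every whole muscle library changed from 5 to 1 for Nfkb2, 5 to 3 for Rela, 3 to 0 for Relb, 4 to 0 for Nfkbib and 8 to 4 for Tnfaip3. Other reversed log2 fold changes were Nfkb1 in single fibers against pools of 20 (-0.027 with RLE factors and with DESeq2, -0.20 with upper-quartile factors), and without the filter Tnfaip3 in the same comparison (0.26) and Nfkbia (-0.33) and Nfkbie (-0.42) in pools of 20 against whole muscle. With only 2 groups in the fit, Nfkbie (0.32) and Bcl3 (0.35) turned for the fibers together. Without the wide receptor-gene libraries Nfkbib turned for the fibers together (0.47), and in pools of 5 Rela (-0.046), Relb (-0.81), Bcl3 (-2.67) and Nfkbib (0.63) did. The cause was not tested.

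Leaving out 1 library turned the direction for Nfkb1 (-0.40 to 0.32) and Rela (-0.62 to 0.20) in single fibers against pools of 5, and for Nfkb1 (-0.044 to 0.90), Relb (-0.21 to 1.12), Nfkbia (-1.44 to 0.32), Nfkbiz (-1.06 to 0.33) and Tnfaip3 (-0.57 to 0.31) in single fibers against pools of 20. It also did for Nfkbia for the fibers together (-0.40 to 0.33), for Nfkbia (-1.36 to 0.42), Nfkbie (-0.19 to 0.67) and Bcl3 (-0.18 to 0.87) in pools of 20 against whole muscle, for Nfkbib in pools of 5 against whole muscle (-1.03 to 0.13) and for Nfkbiz in pools of 5 against pools of 20 (-0.11 to 1.197). Nfkbiz for the fibers together kept its direction and call in all 19 alternatives, with log2 fold changes of 3.07 to 4.13. Bcl3 and Nfkbie in single fibers rest on 0 to 9 reads per library, at total counts of 12685900 to 27787120 reads.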
